A study of Mus musculus with 12 samples.

Results

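Chemokines and chemokine receptors were examined in RNA-seq of the periocular skin, leaving aside the neutrophil-attracting ligands *Cxcl1*, *Cxcl2*, *Cxcl3* and *Cxcl5* with their receptor *Cxcr2*, and the receptor *Xcr1*. The genes were chosen by symbol alone: every *Ccl*, *Cxcl*, *Ccr* or *Cxcr* name with a number, together with *Cx3cl1*, *Cx3cr1* and *Xcl1*. All 46 genes with such a name reached the minimum of 10 counts summed over the 8 libraries and were tested, out of 20454 genes tested in all. They comprised 30 ligands and 16 receptors. Both groups of mice were filaggrin-deficient (ft/ft), carrying a spontaneous loss-of-function mutation of *Flg* on the BALB/c background, and were 6 weeks old. One group of 4 libraries carried no further allele, and the other 4 were labelled as the in-house cross to MyD88-deficient mice (ft/ftMyD88-/-), MyD88 being the adaptor of toll-like and IL-1 family receptors. Neither label nor methods give the litter, and wildtype (WT) libraries were not analysed here.

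The libraries held 15802957 to 29255129 counts, and values are given as CPM, counts scaled to a common library size after TMM normalization. A count of 0 allowed a level of up to 0.102 to 0.183 CPM (3 counts), which covers counting error only. The labelled tissue was checked on its keratinocyte markers *Krt5*, *Krt14*, *Krt1*, *Krt10* and *Trp63*, which summed to 16909 to 26669 CPM. *Myd88* itself did not fall with the label, standing in ft/ftMyD88-/- at 41.2 ± 7.29 CPM against 30.7 ± 4.74 in ft/ft (SD, n = 4 each), and passed as higher (edgeR adjusted p = 0.0484), and a count per gene does not show which exons were read, so every direction below rests on the labels. Female *Xist* had 1 count over the 4 ft/ft libraries and 49.4 ± 13.3 CPM in ft/ftMyD88-/-, whereas Y-linked *Ddx3y* had 65.0 ± 8.97 CPM in ft/ft against 0.147 ± 0.225 in ft/ftMyD88-/-. *Tmem79*, the gene of the matted mutation, which the study states its ft/ft line does not carry, was lower in ft/ftMyD88-/-, at 59.2 ± 2.92 and 16.4 ± 2.10 CPM (log2 fold change -1.85, edgeR adjusted p = 5.08e-07), and *Flg* at 103 ± 69.8 and 242 ± 39.5. Hence the labelled genotype, the sex of the mice and the *Tmem79* difference cannot be told apart below, whatever gene is considered. The study describes its mice as female, and it links the matted mutation to dermatitis arising spontaneously in the flaky tail strain of origin.

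Chemokines are small secreted proteins that guide leukocytes along concentration gradients. They are named for the spacing of the first cysteines of the mature protein, which are adjacent in the CC family and separated by 1 residue in the CXC family and by 3 in the CX3C family. Their receptors span the membrane with a bundle of helices and signal through inhibitory G proteins. In skin, keratinocytes, fibroblasts, endothelium and resident macrophages supply the ligands, and arriving monocytes, T cells and dendritic cells carry the receptors.

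The cysteine codons that define the families are shown for the ligands on which the comparison turned, because the spacing is what names the families. Each line is the coding strand of the GENCODE M21 transcript, 5′ to 3′, with the cysteine codons of the motif in capitals.
Ccl2: ccactcaccTGCTGCtactcattc
Ccl7: gcatccacaTGCTGCtatgtcaag
Ccl8: ccagtcaccTGCTGCtttcatgta
Ccl12: ccagtcacgTGCTGTtataatgtt
Ccl20: aactacgacTGTTGCctctcgtac
Ccl28: gcctccagcTGTTGCactgaggtg
Cxcl10: acggtccgcTGCaacTGCatccatatc
Cxcl12: agctaccgaTGCcccTGCcggttcttc
Cxcl16: gctggaagtTGTtctTGTgatcgtacc
Cx3cl1: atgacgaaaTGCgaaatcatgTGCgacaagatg

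A motif of the expected spacing was found in 20 of 20 CC ligands, 8 of 8 CXC ligands and in *Cx3cl1*. Of the receptors, all 16 held the aspartate, arginine and tyrosine codons through which the receptor meets its G protein, with phenylalanine in place of tyrosine in *Cxcr6* alone. Those codons are in capitals in the coding-strand windows of receptors that passed the test.
Ccr1: ttgacgattGACAGATACctggccatt
Ccr8: atgagtgtgGACAGGTATctggctatt
Ccr9: atcagtgtgGACAGATACattgccatt
Cxcr4: atcagcctgGACCGGTACctcgctatt
Cxcr6: atcacagtgGATCGTTTCattgtagtg

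By identity of the coding sequence, *Ccl7* and *Ccl11* (66.3%), *Ccl12* and *Ccl8* (65.4%) and *Ccl6* and *Ccl9* (65.1%) were the nearest pairs among the ligands of the CC cluster after *Ccl3* and *Ccl4* (68.4%). None of the 50-base stretches of *Ccl2*, *Ccl7*, *Ccl8*, *Ccl12*, *Ccl20* or *Cxcl12* was found in another gene. For *Ccl21a* 71.6% of 50-base stretches were shared with copies such as *Gm21541* and *Ccl21b*, for *Ccl19* 52.0% with copies such as *Gm2564*, for *Ccl27a* 45.0% and for *Cxcl11* 40.4%, so the counts of these 4 genes are uncertain. *Ccr9* shared 20.1%, mostly with the overlapping *AC165425.1*, and *Cxcl16* shared 16.9% with *Zmynd15*. The methods name a kit that does not mark the strand and HTSeq's default parameters, whereas the labels name another protocol, so reads of overlapping genes cannot be assigned with certainty.

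More chemokine transcripts passed the test as higher than as lower in the libraries labelled ft/ftMyD88-/-. Of the 46 genes, 18 were higher and 2 lower at an edgeR adjusted p under 0.05 over all genes tested, and 26 did not pass. Among all genes tested 10.9% were higher and 12.3% lower. The largest increases were those of *Ccl12* and the receptor *Ccr1*, at 5.53-fold and 5.27-fold, and the decreases were those of *Ccr9*, 3.50-fold, and *Cx3cl1*, 1.48-fold. The median log2 fold change was 0.62 over the 46 genes and 0.01 over all genes tested, with 36 of the 46 positive. In 17 genes every ft/ftMyD88-/- library lay above every ft/ft library and in 2 every one lay below, where 12.5% and 14.2% of all genes tested did so. Both kinds of gene took part, with 12 of 30 ligands and 6 of 16 receptors higher and 1 of each lower. Without ft/ftMyD88-/- replicate 2, the highest library of its group for 11 of the 18 genes, 15 genes were higher and 2 lower.

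**Figure D1:**
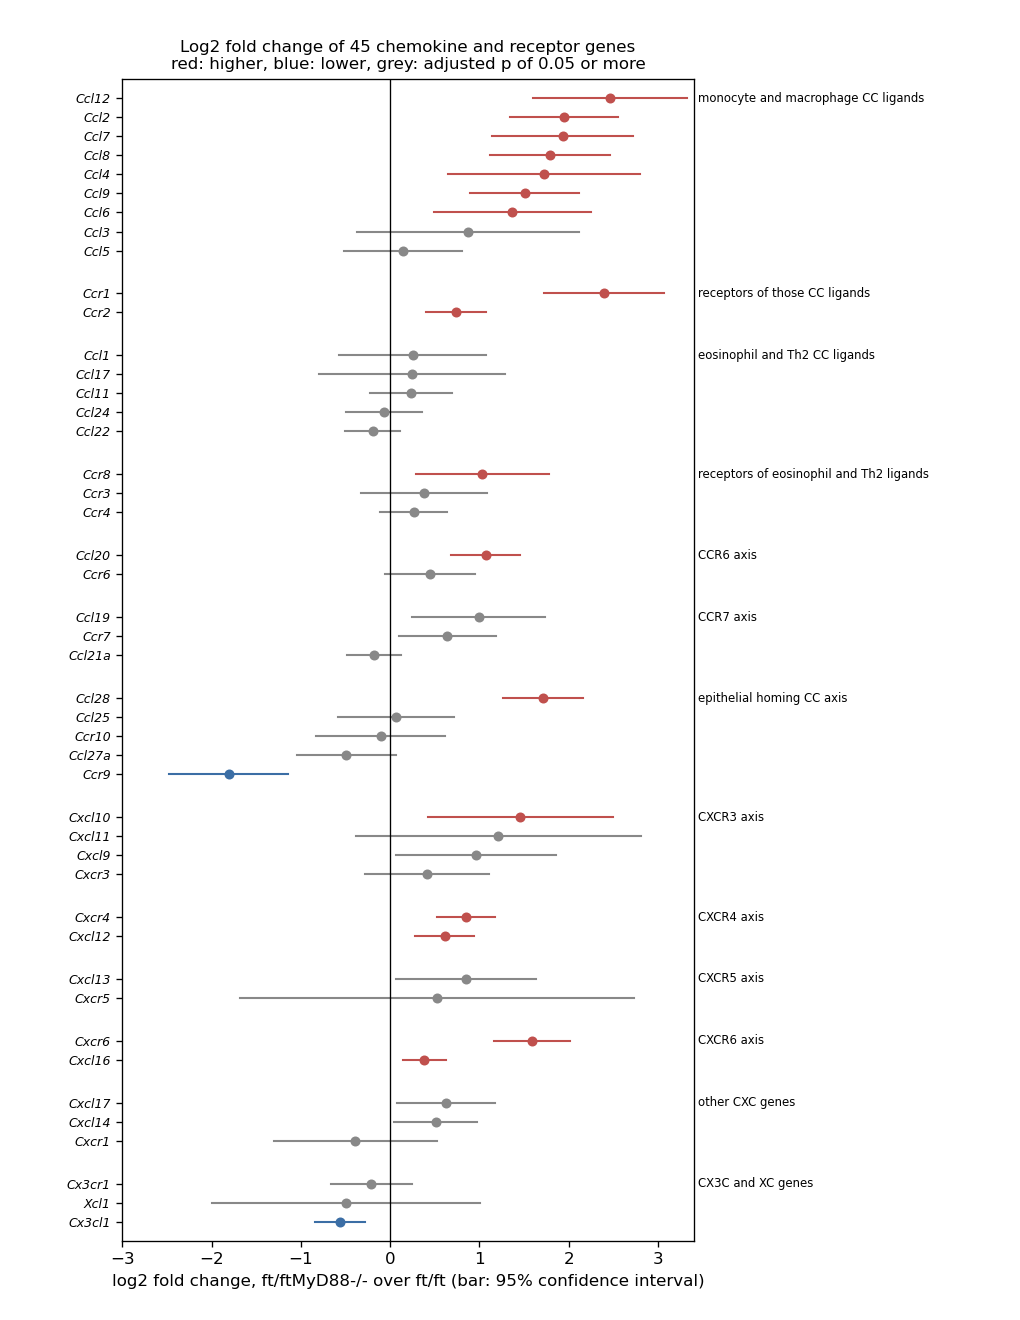
The log2 fold change of 45 genes, ft/ftMyD88-/- over ft/ft (x axis), is plotted by role group (y axis) with its 95% confidence interval as a bar; red marks genes that passed the test as higher, blue as lower, grey neither. The monocyte and macrophage ligand *Ccl12* and the receptor *Ccr1* sit furthest to the right, at 2.47 and 2.40, and *Ccr9* furthest to the left at -1.81.

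The ligands of monocytes and macrophages formed the group with the most increases. Several of these CC ligands bind receptors such as CCR1 and CCR2. Of the 9 ligands, 7 were higher in the libraries labelled ft/ftMyD88-/-, with a median log2 fold change of 1.72 over all 9. *Ccl2* (GRCm38.p6 chromosome 11, 82035577 to 82037452), the classical monocyte attractant and CCR2 ligand, was at 1.59, 1.93, 1.51 and 1.34 CPM in ft/ft and at 3.02, 7.09, 6.53 and 8.17 in ft/ftMyD88-/-. Its log2 fold change was 1.95 (standard error, SE, 0.278, edgeR adjusted p = 6.33e-04), with no overlap and ft/ftMyD88-/- replicate 1 the lowest of its group.

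*Ccl7* and *Ccl12*, its neighbours and fellow CCR2 ligands, followed it. *Ccl7* was at 2.10, 1.89, 2.06 and 1.23 CPM in ft/ft and at 3.07, 9.70, 5.44 and 9.57 in ft/ftMyD88-/-, a log2 fold change of 1.93 (SE 0.355, edgeR adjusted p = 0.00377). *Ccl12* (chromosome 11, 82101845 to 82103399) was at 0.643, 0.255, 0.502 and 0.460 CPM and 1.71, 3.71, 1.36 and 3.54 CPM in that order, from 7 to 15 counts a library in ft/ft and at 39 to 101 in ft/ftMyD88-/-. Its log2 fold change of 2.47 (95% confidence interval 1.60 to 3.33, edgeR adjusted p = 0.00129) was the highest of the 46 genes. In both genes replicates 2 and 4 of ft/ftMyD88-/- stood above replicates 1 and 3.

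*Ccl8*, an attractant of monocytes and T cells made by dermal macrophages, was the most abundant of these ligands. It stood at 31.7, 37.3, 38.5 and 39.3 CPM in ft/ft and at 78.3, 186, 86.8 and 157 in ft/ftMyD88-/- (log2 fold change 1.79, SE 0.290, edgeR adjusted p = 0.00422). The ft/ft libraries lay close together, with an SD of 3.43 CPM, and the ft/ftMyD88-/- libraries ranged widely, with an SD of 53.0. *Ccl6* and *Ccl9*, CCR1 ligands of myeloid cells, did not overlap between the groups either. *Ccl6* was at 32.2, 29.9, 21.0 and 29.6 CPM in ft/ft and at 42.3, 128, 49.8 and 71.1 in ft/ftMyD88-/-. *Ccl9* was at 18.9, 22.6, 17.6 and 22.2 CPM and at 36.6, 88.6, 44.0 and 62.7 in the same order.

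Both passed the test, *Ccl9* with a log2 fold change of 1.51 (edgeR adjusted p = 0.00524) and *Ccl6* with 1.37 (edgeR adjusted p = 0.0386). *Ccl6* lost its call when any ft/ft library or ft/ftMyD88-/- replicate 4 was left out, with an adjusted p of up to 0.0907. *Ccl4*, an attractant of macrophages and T cells, was low throughout, at 0.300, 0.327, 0.112 and 0.0383 CPM in ft/ft and at 0.570, 0.919, 0.510 and 0.671 in ft/ftMyD88-/-, or 1 to 9 counts a library and 11 to 25. Its groups did not overlap (log2 fold change 1.72, SE 0.497, edgeR adjusted p = 0.0257), yet the call was lost without ft/ft replicate 3 or 4 or ft/ftMyD88-/- replicate 2 or 4, with an adjusted p of up to 0.0733.

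The remaining 2 ligands of the group did not pass. *Ccl3*, which binds CCR1, was at 0.115 to 0.582 CPM in ft/ft and at 0.175 to 0.845 in ft/ftMyD88-/- (log2 fold change 0.87, 95% confidence interval -0.37 to 2.11), and its RefSeq record overlaps that of *Ccl4*. *Ccl5*, released by T cells and platelets among others, was at 0.558 to 1.02 and 0.657 to 1.36 CPM, a log2 fold change of 0.14 (95% confidence interval -0.52 to 0.80). All 9 estimates were positive, and the calls within the group ranged from 5 to 7 over the 15 alternative fits.

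Receptors of these ligands passed as well. *Ccr1* (chromosome 9, 123962126 to 123968692), carried by monocytes, macrophages and neutrophils, rose from 1.89, 3.24, 1.45 and 2.42 CPM in ft/ft to 9.07, 17.2, 7.86 and 14.0 in ft/ftMyD88-/- (log2 fold change 2.40, SE 0.303, edgeR adjusted p = 5.49e-04). *Ccr2*, the receptor by which inflammatory monocytes leave the marrow, was more abundant than *Ccr1* per length in ft/ft and had the smaller fold change. It was at 18.5, 20.8, 21.8 and 17.9 CPM in ft/ft and at 23.0, 40.6, 36.3 and 31.5 in ft/ftMyD88-/- (log2 fold change 0.74, SE 0.153, edgeR adjusted p = 0.00525). Neither overlapped between the groups, and both kept their calls in every one of the 15 alternative fits.

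**Figure D2:**
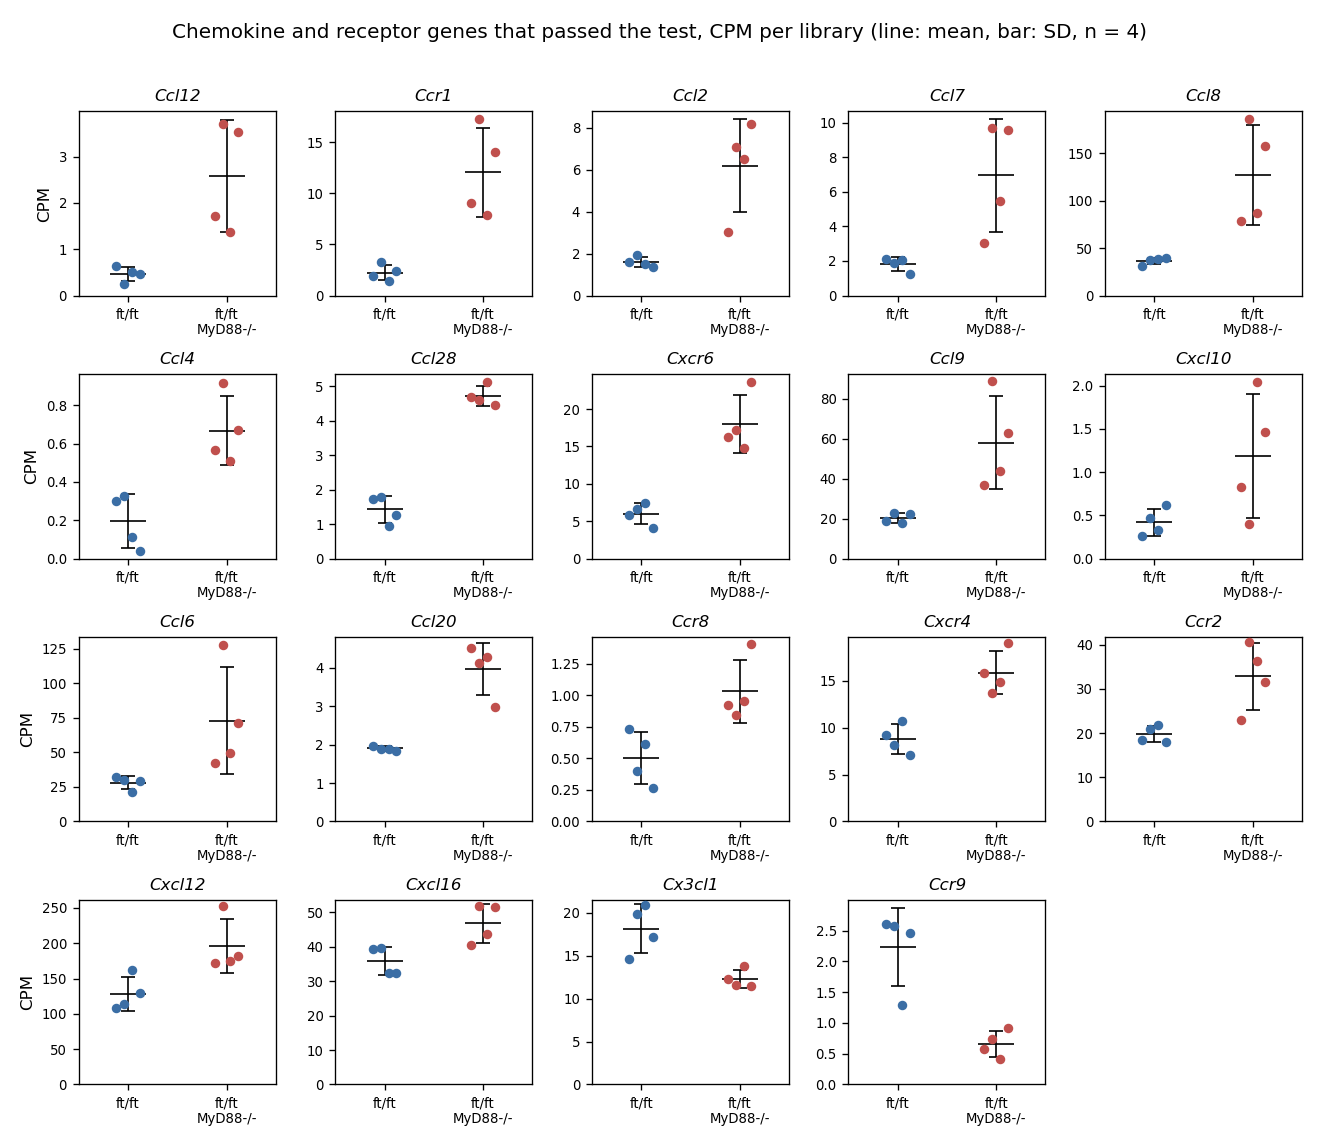
CPM (y axis, from 0) of 19 genes that passed the test is plotted in each library labelled ft/ft (blue) and ft/ftMyD88-/- (red), with the mean as a long line and the SD as a bar (n = 4). The groups overlap in *Cxcl10* only, and *Ccr9* and *Cx3cl1* are the genes with red points below blue ones.

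Summed over the 9 ligands, the level was 88.6, 95.8, 82.1 and 95.1 CPM in ft/ft and 166, 426, 196 and 314 in ft/ftMyD88-/-. Myeloid markers were divided. Of 9 macrophage and monocyte markers 3 were higher and 0 lower, with 2 higher in limma voom and in 6 of the 8 fits that left out 1 library, and 1 lower without ft/ft replicate 1. Their sum was 531 to 688 CPM in ft/ft and 802 to 1048 in ft/ftMyD88-/-, with *Lyz2* its most abundant gene at 260 ± 13.5 and 514 ± 117 CPM. *Fcgr1* also passed, with a log2 fold change of 0.88. The defining markers *Adgre1* (21.9 ± 2.22 and 21.4 ± 3.84 CPM), *Csf1r* (106 ± 18.1 and 92.0 ± 8.29) and *Cd68* (40.6 ± 6.24 and 37.5 ± 5.11) did not pass, and *Ly6c2*, of inflammatory monocytes, was at 1.36 ± 0.186 and 1.22 ± 0.468. Their part in the chemokine result was not tested. More cells of a type and more RNA per cell cannot be told apart in whole skin.

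**Figure D3:**
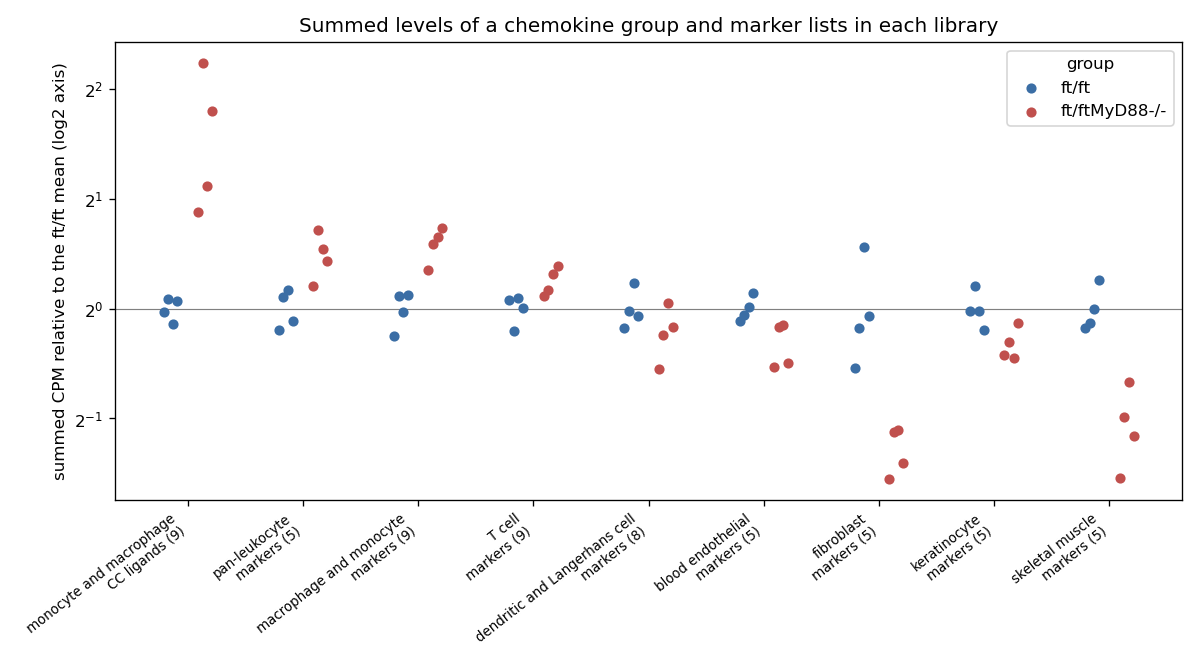
Summed CPM of 1 chemokine group and 8 marker lists in each library, relative to the ft/ft mean of that sum, is plotted on a log2 axis (y); points are the 4 ft/ft (blue) and 4 ft/ftMyD88-/- (red) libraries and the number of genes stands in brackets. The red points of the monocyte and macrophage ligands reach highest, and those of the fibroblast and skeletal muscle markers lie lowest.

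The 5 ligands grouped by their action on eosinophils and Th2 cells did not pass, although *Ccl7* and *Ccl8*, which passed above, also act on these cells. *Ccl1*, *Ccl11*, *Ccl17*, *Ccl22* and *Ccl24* had log2 fold changes of -0.20 to 0.25, with 0 of 5 called in the main fit and in each of the 15 alternatives. *Ccl11*, the eotaxin of dermal fibroblasts, was at 21.1, 20.5, 30.8 and 28.8 CPM in ft/ft and at 20.2, 28.5, 40.5 and 29.8 in ft/ftMyD88-/- (95% confidence interval of the log2 fold change -0.23 to 0.70). *Ccl22* and *Ccl17*, the CCR4 ligands of dendritic cells, were at 11.4 ± 2.12 and 9.94 ± 0.626 CPM (interval -0.51 to 0.12) and at 1.11 ± 0.634 and 1.35 ± 0.589 CPM (interval -0.79 to 1.29). The intervals of *Ccl17* and *Ccl1* (-0.57 to 1.07) include changes of more than 2-fold, whereas those of *Ccl11*, *Ccl22* and *Ccl24* (-0.49 to 0.36) do not. *Ccl1*, a CCR8 ligand, had 6 to 20 counts in each library.

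Their receptors were divided. *Ccr8*, found on skin-resident and regulatory T cells, was at 0.729, 0.400, 0.614 and 0.268 CPM in ft/ft and at 0.920, 0.845, 0.953 and 1.40 in ft/ftMyD88-/- (log2 fold change 1.03, SE 0.342, edgeR adjusted p = 0.0468). By edgeR it lost the call in 7 of the 8 fits that left out 1 library, all but that without ft/ft replicate 1, with an adjusted p of up to 0.122, and with the replicate number as a block (adjusted p = 0.0798). *Ccr3*, the eotaxin receptor, was at 1.07 ± 0.397 and 1.42 ± 0.509 CPM, and *Ccr4*, of Th2 and skin-homing T cells, at 4.46, 3.93, 2.96 and 4.60 and at 4.91, 5.36, 4.63 and 4.27 CPM (edgeR adjusted p = 0.439 and 0.293). Among 3 eosinophil and basophil markers in the table *Siglecf* was higher, at 0.653 ± 0.191 and 1.67 ± 0.328 CPM.

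The epidermal ligand *Ccl20*, which recruits IL-17-producing T cells and dendritic cells through CCR6, roughly doubled. It was at 1.97, 1.89, 1.90 and 1.84 CPM in ft/ft, an SD of 0.0541, and at 4.51, 4.12, 4.29 and 2.99 in ft/ftMyD88-/- (2.10-fold, log2 fold change 1.07, SE 0.179, edgeR adjusted p = 0.00156). The ft/ft libraries were the most uniform of any of the 46 genes relative to their mean. However, they held only 46, 52, 34 and 48 counts of *Ccl20*, and counting error at such counts is larger than that spread. In ft/ftMyD88-/- the lowest level of *Ccl20* was that of replicate 4. Its receptor *Ccr6* was at 1.84, 2.22, 3.24 and 2.11 CPM and 2.28, 4.12, 3.06 and 3.23 CPM, overlapping between the groups (log2 fold change 0.44, 95% confidence interval -0.06 to 0.95, edgeR adjusted p = 0.186).

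The CCR7 axis leads dendritic cells and naive T cells into lymphatics and lymph nodes, and 0 of its 3 genes passed in the main fit. *Ccl21a*, of lymphatic endothelium, was at 91.3, 100.2, 112 and 97.6 CPM in ft/ft and at 64.8, 87.3, 110 and 92.3 in ft/ftMyD88-/- (log2 fold change -0.18, 95% confidence interval -0.48 to 0.12). *Ccl19* had a log2 fold change of 0.99 (edgeR adjusted p = 0.0538) and *Ccr7* one of 0.64 (edgeR adjusted p = 0.0831), each with overlapping groups. *Ccl19* did pass with DESeq2 (adjusted p = 0.0204), with RLE normalization (0.0496), with library size only (0.0227) and without ft/ftMyD88-/- replicate 1 (0.0220), and *Ccr7* with library size only (0.0277). Neither was reversed in any fit. Reads of *Ccl21a* and *Ccl19* are largely shared with their copies, as given above. Of 4 lymphatic endothelial markers 0 passed, but 2 were higher with DESeq2, with library size only, with the replicate block and without ft/ftMyD88-/- replicate 3, 1 was higher without ft/ftMyD88-/- replicate 1 and 1 was lower without ft/ft replicate 1. Their sum was 55.3 to 75.8 CPM in ft/ft and 64.1 to 107 in ft/ftMyD88-/-.

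Of the 5 epithelial homing genes 1 was higher, the ligand *Ccl28*, and 1 lower, the receptor *Ccr9*, which does not bind it. *Ccl28* (chromosome 13, 119623819 to 119654359), a ligand of mucosal and glandular epithelia that binds CCR10 and CCR3, was at 1.71, 1.78, 0.948 and 1.27 CPM in ft/ft and at 4.69, 4.59, 5.14 and 4.45 in ft/ftMyD88-/-. Its log2 fold change of 1.71 (SE 0.206) had the smallest adjusted p of the 46 genes, 2.27e-04 by edgeR. *Ccr9* (chromosome 9, 123767211 to 123783457), the receptor of gut-homing T cells and thymocytes, fell from 2.61, 2.58, 1.28 and 2.45 CPM to 0.570, 0.735, 0.408 and 0.915, a log2 fold change of -1.81 (SE 0.307, edgeR adjusted p = 0.00168).

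Both genes passed in every alternative fit. *Ccl25*, the ligand of CCR9, was at 2.01, 1.02, 0.837 and 1.42 CPM in ft/ft and at 1.45, 1.47, 0.953 and 1.77 in ft/ftMyD88-/- (log2 fold change 0.07, 95% confidence interval -0.59 to 0.72). *Ccr10*, the receptor of CCL28 and CCL27, was at 0.429, 0.691, 0.781 and 0.652 and at 0.613, 0.698, 0.680 and 0.305 CPM, overlapping between the groups. *Ccl27a*, made by keratinocytes to draw skin-homing T cells, was at 28.2, 19.1, 22.8 and 22.2 CPM and 10.9, 11.6, 23.7 and 19.3 CPM (log2 fold change -0.49, edgeR adjusted p = 0.181). It passed only without ft/ftMyD88-/- replicate 3 (log2 fold change -0.72, edgeR adjusted p = 0.0259), the library of that group with the highest value. Among 5 keratinocyte markers 0 were higher and 2 lower, *Krt10* being one of them at a log2 fold change of -0.58.

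Interferon-inducible ligands of CXCR3, which draws Th1 and cytotoxic T cells, were low and uneven. *Cxcl10* was at 0.257, 0.473, 0.335 and 0.613 CPM in ft/ft and at 0.833, 0.404, 2.04 and 1.46 in ft/ftMyD88-/-, so that replicate 2 lay inside the ft/ft range. It passed (log2 fold change 1.46, SE 0.476, edgeR adjusted p = 0.0441), but not with limma voom (adjusted p = 0.139), with the replicate block (0.0538) or in 6 of the 8 fits that left out 1 library, those without any ft/ft library or without ft/ftMyD88-/- replicate 3 or 4, where the adjusted p reached 0.140. *Cxcl9* was at 1.31 to 1.99 CPM in ft/ft and at 1.05, 2.46, 5.14 and 4.09 in ft/ftMyD88-/- (log2 fold change 0.96, edgeR adjusted p = 0.111). It passed with DESeq2 (adjusted p = 0.0469) and without ft/ftMyD88-/- replicate 1 (0.00712), the library that lay below the ft/ft range. *Cxcl11* had at most 8 counts in any library, and *Cxcr3* itself was at 0.729, 0.909, 1.51 and 0.882 and at 0.701, 1.47, 1.74 and 1.34 CPM (log2 fold change 0.41, edgeR adjusted p = 0.383).

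The CXCR4 axis passed on both sides. *Cxcl12* (chromosome 6, 117168535 to 117181368), a homeostatic ligand of fibroblasts and endothelium that retains leukocytes and progenitors, was at 108, 114, 161 and 129 CPM in ft/ft and at 172, 253, 175 and 182 in ft/ftMyD88-/- (log2 fold change 0.61, SE 0.152, edgeR adjusted p = 0.0139). *Cxcr4* was at 9.22, 8.18, 10.7 and 7.05 CPM and 15.9, 13.7, 14.9 and 19.0 CPM (log2 fold change 0.85, SE 0.149, edgeR adjusted p = 0.00201). Neither overlapped, and both passed in all 15 alternative fits. Of 5 fibroblast markers 0 were higher and 2 lower, the collagens *Col1a1* and *Col1a2* (log2 fold changes -1.60 and -1.49), which make up most of a sum of 8643 to 18617 CPM in ft/ft and 4293 to 5861 in ft/ftMyD88-/-. *Dcn* (-0.40), *Lum* (0.09) and *Pdgfra* (0.31) did not pass. Of 5 blood endothelial markers 0 were higher and 2 lower. With library size only, 1 of those 5 was higher and 0 lower, and with DESeq2 or without ft/ftMyD88-/- replicate 1, 1 was higher and 2 lower. Their part in the *Cxcl12* result was not tested.

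CXCR6 and its ligand likewise passed together. *Cxcr6* (chromosome 9, 123806477 to 123811754), a receptor of tissue-resident T cells, was at 5.83, 6.66, 7.42 and 4.06 CPM in ft/ft and at 16.2, 17.2, 14.8 and 23.7 in ft/ftMyD88-/-, 3.00-fold higher (log2 fold change 1.59, SE 0.195, edgeR adjusted p = 2.78e-04). *Cxcl16*, a ligand that is made as a membrane protein and also released, was at 39.3, 39.8, 32.5 and 32.3 CPM and 40.6, 51.8, 43.7 and 51.5 CPM. Its log2 fold change of 0.38 (SE 0.110, edgeR adjusted p = 0.0262) was the smallest of the called genes, and the call was lost without ft/ft replicate 3 or 4 or ft/ftMyD88-/- replicate 2 or 4, with an adjusted p of up to 0.0866. T cell markers moved with the receptor: 8 of 9 were higher and 1 lower, with a sum of 32.5 to 40.0 CPM in ft/ft and 40.4 to 49.1 in ft/ftMyD88-/-. *Cd3e* was at 1.30 ± 0.0558 and 2.24 ± 0.320 CPM, *Trdc* of gamma delta T cells at 1.80 ± 0.596 and 3.35 ± 0.535, and *Cd8a* at 0.0916 ± 0.0800 and 1.06 ± 0.279. Their part in the *Cxcr6* result was not tested.

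The CX3C ligand *Cx3cl1* (chromosome 8, 94772180 to 94782427), a membrane-anchored ligand of endothelium and epithelium, fell. It was at 14.6, 19.9, 20.9 and 17.2 CPM in ft/ft and at 12.2, 11.6, 13.8 and 11.5 in ft/ftMyD88-/- (log2 fold change -0.56, 95% confidence interval -0.84 to -0.28, edgeR adjusted p = 0.00852). The groups did not overlap, and the call was lost with library size only (log2 fold change -0.38, edgeR adjusted p = 0.0504). *Cx3cr1*, its receptor on macrophages and Langerhans cell precursors, was at 3.34, 3.35, 3.57 and 2.19 CPM and 2.98, 2.28, 3.20 and 2.20 CPM (log2 fold change -0.21, 95% confidence interval -0.67 to 0.24). *Xcl1*, a ligand of cross-presenting dendritic cells, had 1 to 15 counts in each library and did not pass.

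The remaining CXC genes did not pass. *Cxcl14*, a ligand made constitutively by epidermis, was at 209, 125, 206 and 225 CPM in ft/ft and at 265, 340, 192 and 291 in ft/ftMyD88-/- (log2 fold change 0.51, edgeR adjusted p = 0.110), and *Cxcl17*, a mucosal ligand, at 4.71, 8.98, 5.24 and 3.26 and at 8.68, 8.34, 7.93 and 9.51 CPM (log2 fold change 0.63, edgeR adjusted p = 0.0926). *Cxcl14* passed with DESeq2, with library size only and without ft/ftMyD88-/- replicate 3, and *Cxcl17* with DESeq2, with library size only and without ft/ft replicate 2, at adjusted p-values of 0.0285 to 0.0434 for *Cxcl14* and 0.00420 to 0.0443 for *Cxcl17*. *Cxcr1* was at 0.431 ± 0.158 and 0.341 ± 0.124 CPM. *Cxcl13*, which gathers B cells through CXCR5, was at 1.89, 0.946, 2.62 and 2.76 and at 3.68, 5.84, 2.65 and 2.44 CPM (log2 fold change 0.85, edgeR adjusted p = 0.109). *Cxcr5* stayed at or under 3 counts in every library, so a difference was not detectable at this depth.

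**Figure D4:**
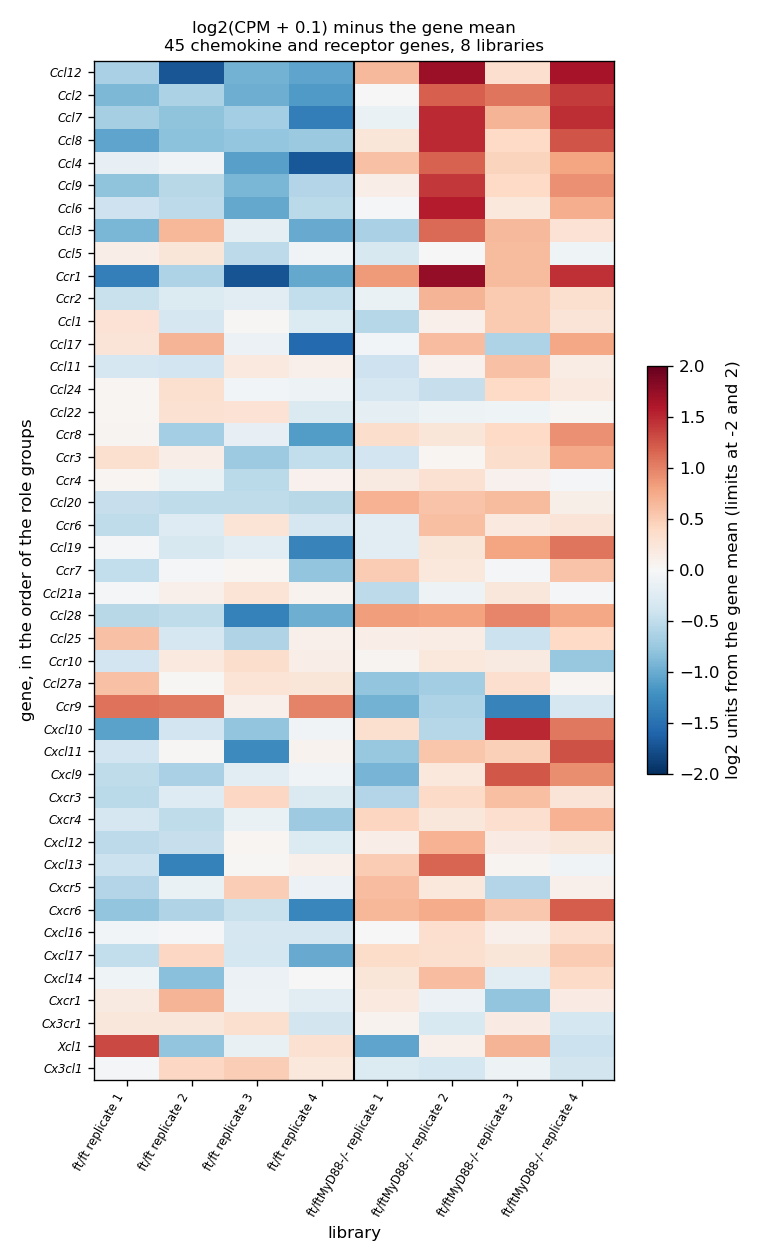
Colour gives log2(CPM + 0.1) minus the gene's mean over the 8 libraries, for 45 genes (rows, by role group) and 8 libraries (columns, ft/ft left of the line and ft/ftMyD88-/- right of it), with the scale limited at -2 and 2. *Ccl2* and *Ccl7* are red in ft/ftMyD88-/- replicates 2, 3 and 4. *Ccl8*, *Ccl12* and *Ccr1* are red in all 4 ft/ftMyD88-/- libraries, and *Ccr9* is blue in all 4.

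The order of levels was compared per kilobase of exon, as CPM divided by the length of the merged GENCODE M21 exons. That division assumes reads along the whole transcript, which is not known here because the library type is uncertain. By CPM alone *Cxcl14* (191) and *Cxcl12* (128) led in ft/ft, ahead of *Ccl21a* (100) and *Ccl8* (36.7). In ft/ftMyD88-/- *Cxcl14* (272) and *Cxcl12* (196) led by CPM, ahead of *Ccl8* (127). The values below are per kilobase. In ft/ft the leading ligands were *Ccl21a* (115 ± 10.2 CPM per kb), *Cxcl14* (105 ± 24.7) and *Ccl8* (71.8 ± 6.72), followed by *Ccl11* (23.4 ± 4.88), *Ccl6* (15.7 ± 2.74) and *Cxcl12* (15.7 ± 2.91). In ft/ftMyD88-/- *Ccl8* led at 249 ± 104 CPM per kb, ahead of *Cxcl14* (149 ± 33.8) and *Ccl21a* (102 ± 21.2), then *Ccl6* (40.6 ± 21.6), *Ccl11* (27.5 ± 7.71) and *Cxcl12* (23.9 ± 4.72). The ranges of mean ± SD overlapped for *Ccl21a* and *Cxcl14* and for *Cxcl12* with both *Ccl6* and *Ccl11* in ft/ft. In ft/ftMyD88-/- they overlapped for neighbours among the first 3 ligands and among the last 3. Of the receptors *Cxcr4* (4.86 ± 0.860 CPM per kb), *Cxcr6* (3.10 ± 0.746) and *Ccr2* (2.92 ± 0.272) led in ft/ft, and *Cxcr6* (9.31 ± 2.03), *Cxcr4* (8.78 ± 1.26), *Ccr2* (4.86 ± 1.11) and *Ccr1* (4.25 ± 1.54) in ft/ftMyD88-/-. *Ccr1* stood at 0.793 ± 0.271 CPM per kb in ft/ft. Neighbouring receptors did not differ beyond their spread for *Cxcr6* and *Ccr2* in ft/ft, and for *Cxcr6* and *Cxcr4* and for *Ccr2* and *Ccr1* in ft/ftMyD88-/-.

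Many of these genes lie in clusters. Chromosome 11 held 14 of the 46, with 8 higher and 0 lower, among them the adjoining *Ccl2*, *Ccl7*, *Ccl11*, *Ccl12*, *Ccl8* and *Ccl1* and, further along, *Ccl5*, *Ccl9*, *Ccl6*, *Ccl3* and *Ccl4*. Within the first run *Ccl11* and *Ccl1* did not pass while the other 4 did. Chromosome 9, which carries *Myd88* (119335934 to 119340018), held 10, all of them receptors, and 9 of these lay within 5 Mb of it, a distance chosen after the values were seen. They included *Ccr4* (4.84 Mb before it), *Cx3cr1* (0.72 Mb after it), *Ccr8* (0.76 Mb), *Ccr9* (4.44 Mb), *Cxcr6* (4.47 Mb), *Ccr1* (4.63 Mb), *Ccr3* (4.69 Mb) and *Ccr2* (4.77 Mb).

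Of these 9 receptors, 5 were higher and 1 lower. All 95 tested genes within 5 Mb held 12 higher and 25 lower, or 38.9% called, and without the receptors 7 of 86 were higher and 24 lower (36.0%). On the rest of chromosome 9 29.5% of 774 genes were called, and over all genes tested 23.3%. A difference in the DNA carried along with the *Myd88* allele and the loss of MyD88 cannot be told apart for these receptors. Outside chromosome 9 only 6 receptors lie elsewhere (*Ccr6*, *Ccr7*, *Ccr10*, *Cxcr1*, *Cxcr3* and *Cxcr4*), of which *Cxcr4* passed.

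**Figure D5:**
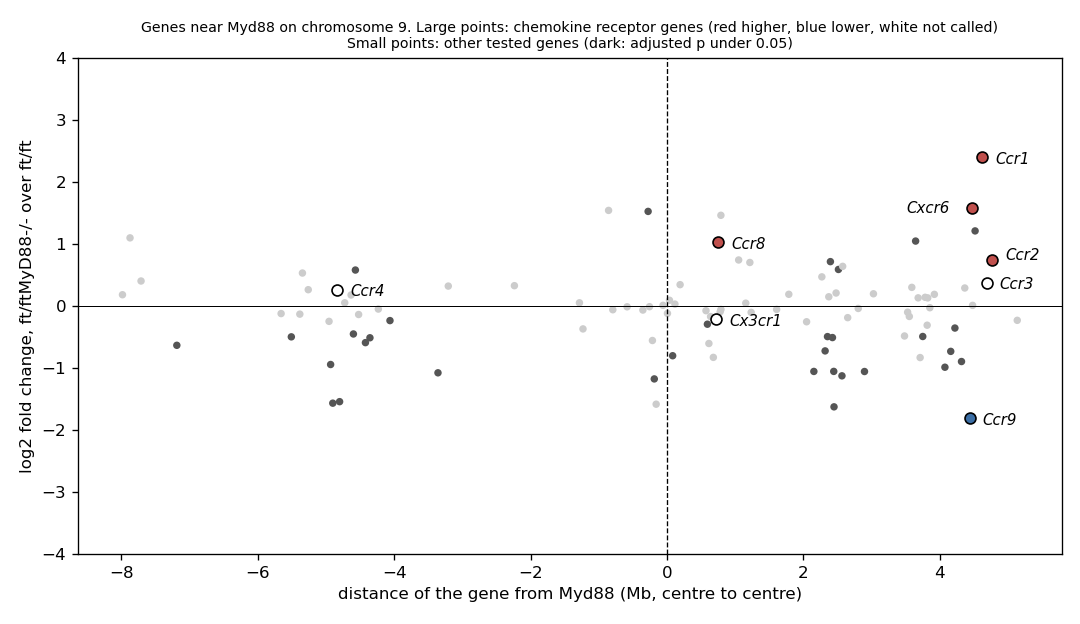
The log2 fold change (y axis) of tested genes within 8 Mb of *Myd88* is plotted against the distance from *Myd88* in Mb (x axis, dashed line at *Myd88*); large points are chemokine receptors (red higher, blue lower, white neither) and small points other genes, dark where they passed the test. *Ccr1*, *Cxcr6* and *Ccr2* lie together between 4.47 and 4.77 Mb above 0 and *Ccr9* lies beside them at -1.81; 1 gene falls outside the plotted range.

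Promoters of 33 of the 46 genes were in the RefSeq table (GRCm38.p6), as 37 windows from 250 bases before to 50 after the start. Both strands were searched for the letters of NF-kB elements (GGG, any 5 bases, CC), interferon elements (GAAA, any 2 bases, GAAA) and STAT elements (TTCNNNGAA, where N is any base). The NF-kB letters were in 7 of 13 windows of genes called higher, 1 of 2 of those lower and 13 of 22 of the others, and in 50.8% of all 32851 promoters in the table, so the share among the higher genes, 53.8%, was near that of any promoter. The interferon letters were in *Cxcl10*, *Ccl19* and *Cxcl14* (8.11% of the 37 windows and 3.44% of all promoters) and the STAT letters in *Ccl17*, *Ccr6* and *Cxcl14* (8.11% and 8.30%).

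The bases upstream of the start are shown for *Ccl20* and *Cxcl10*, the called ligands best known for induction through these elements, with the matches in capitals. In *Ccl20*, chr1:83116516-83116765 on the plus strand, overlapping NF-kB matches begin 82 to 80 bases before the start. In *Cxcl10*, chr5:92348890-92349139 on the minus strand, an interferon match begins 213 bases before the start and NF-kB matches begin 159, 104 and 103 bases before it, the last pair overlapping.
Ccl20: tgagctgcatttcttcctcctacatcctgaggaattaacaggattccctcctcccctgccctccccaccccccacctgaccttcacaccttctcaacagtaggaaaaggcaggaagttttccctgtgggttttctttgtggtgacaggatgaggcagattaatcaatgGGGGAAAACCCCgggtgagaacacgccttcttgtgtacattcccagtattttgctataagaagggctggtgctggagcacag
Cxcl10: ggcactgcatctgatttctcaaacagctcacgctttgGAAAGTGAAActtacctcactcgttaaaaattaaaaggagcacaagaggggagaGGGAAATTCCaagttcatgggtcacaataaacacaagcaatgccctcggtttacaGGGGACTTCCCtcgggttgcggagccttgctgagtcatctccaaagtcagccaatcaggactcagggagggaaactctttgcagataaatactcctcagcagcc
A match of letters is not a bound site, and no binding was measured in these samples.

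Genes that act with chemokines outside the 46 moved in both directions. Atypical receptors bind chemokines without G protein signalling and clear or carry them, and of 5 such genes 0 were higher and 3 lower. *Ackr2*, the scavenger of inflammatory CC ligands including CCL2, was at 12.1, 14.9, 16.7 and 14.1 CPM in ft/ft and at 4.56, 7.35, 8.68 and 5.79 in ft/ftMyD88-/- (log2 fold change -1.13, SE 0.185, edgeR adjusted p = 0.00140). It lies 2.57 Mb from *Myd88*, and a difference carried with that allele cannot be told apart for it either. *Ackr1*, of venular endothelium, was at 11.7 ± 1.41 and 7.06 ± 1.93 CPM (log2 fold change -0.72, edgeR adjusted p = 0.0134), and *Ackr4*, the scavenger of CCR7 ligands, at 41.8 ± 5.97 and 27.5 ± 7.49 (log2 fold change -0.60, edgeR adjusted p = 0.0322).

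*Ackr2* and *Ackr1* did not overlap between the groups, and *Ackr4* lost its call with library size only (edgeR adjusted p = 0.116). The list had 2 lower in place of 3 in 6 of the 8 fits that left out 1 library, all but those without ft/ft replicate 2 or ft/ftMyD88-/- replicate 3. *Ackr3*, the scavenger of CXCL12, was at 33.7 ± 5.38 and 38.1 ± 6.81 CPM and did not pass (edgeR adjusted p = 0.389), and *Ccrl2* did not either. Of 4 platelet chemokine and chemerin genes 0 passed, but 2 were higher without ft/ftMyD88-/- replicate 1 and 1 was higher with DESeq2, with the replicate block and without ft/ftMyD88-/- replicate 3. *Ppbp* among them was at 0.223 to 2.51 CPM in ft/ft and at 19.9, 92.5, 0.238 and 3.48 in ft/ftMyD88-/- (edgeR adjusted p = 0.101), and it passed with DESeq2 (adjusted p = 0.00328).

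Downstream of the receptors, 28 signalling genes were tested, and 11 were higher and 3 lower. Those higher included the leukocyte genes *Rac2*, *Dock2* and *Vav1*, which turn the G protein signal into movement, with log2 fold changes of 0.55, 0.46 and 0.76, and the kinase *Fgr* at 0.82. *Rgs1*, which ends G protein signals in lymphocytes, rose most, from 0.214, 0.618, 0.614 and 0.345 CPM in ft/ft to 2.67, 2.94, 2.35 and 3.23 in ft/ftMyD88-/- (log2 fold change 2.64, SE 0.298, edgeR adjusted p = 1.68e-04). The 3 lower genes, *Arrb1*, *Gnai3* and *Adrbk1*, are expressed by most cell types, and *Arrb1* was at 103 ± 2.62 and 65.3 ± 5.94 CPM (log2 fold change -0.65, edgeR adjusted p = 3.72e-04). With library size only, 15 were higher and 1 lower, while omission of ft/ft replicate 3 left 7 higher and that of replicate 4 left 6. The pan-leukocyte markers, which these genes accompany, had 3 of 5 higher and 0 lower (5 higher with library size only), and *Ptprc* (CD45) was at 22.2 ± 1.85 and 36.1 ± 4.55 CPM. Their part in the signalling genes was not tested.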

How the data were processed

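Of the 12 samples, the 4 ft/ft and 4 ft/ftMyD88-/- libraries were used, and the 4 WT libraries were not analysed here. The deposited values are raw counts per gene in 1 table. Per the authors' methods, 50-base single-end reads of polyadenylated RNA were checked with FastQC and mapped to GRCm38.p6 (HISAT, TopHat2). The methods name HTSeq for finding the differentially expressed genes. The labels instead name Cell Ranger, GRCm38 and a fixed-tissue protocol, so the library type is uncertain. The methods give default parameters for HTSeq, and which tool made the counts is not certain. The release of the gene annotation is not given in the sources used here. No label ties libraries to litters or batches, so p-values measure the spread between these samples.

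Genes with at least 10 counts over the 8 libraries were tested (20454 of 21247) with edgeR 4.0.16 in R 4.3.3 (TMM, robust quasi-likelihood F test, group as the only term), and p-values were adjusted by Benjamini-Hochberg over all of them at 0.05. Standard errors were derived from the log2 fold change and the F statistic. The procedure was tested on simulated data. No pair of replicates was a repeat deposit, the lowest chi-square between libraries of 1 group being 15.1 per degree of freedom. The alternatives were another model (DESeq2 1.42.0, or voom in limma 3.58.1), another scaling (RLE, or library size only), another filter (filterByExpr, or none), a block for the replicate number, omission of single libraries, and stricter limits (adjusted p under 0.01, or log2 fold change of 1 or more in size).

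The genes and lists were chosen with earlier results of these data known. Every gene of the symbol rule was counted in its role group. Those that passed were given by library, as were most of their ligand or receptor partners. The others were given by library, mean and SD, range or counts, or by the log2 fold change or its confidence interval alone. Some genes that enter the counts are not reported here by name or plotted. Genes outside the rule were named to check the labels or as members of marker and pathway lists. Positions and promoters came from RefSeq (GRCm38.p6) and coding sequences, exon lengths and shared 50-base stretches from GENCODE M21, which may not be the annotation that was counted.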

Additional observations from a re-analysis of the deposited data

Results flagged for a closer look

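In 3 of 92 sets of 4 libraries (46 genes in 2 groups, 3.26%), 1 library lay further from the rest than Dixon's criterion allows, where chance gives about 1 in 20. *Ccr9* stood at 1.28 CPM in ft/ft replicate 3, against 2.45 to 2.61 in the other ft/ft libraries. In ft/ft replicate 4 *Cx3cr1* had 2.19 CPM, where the others had 3.34 to 3.57. *Cxcl12* was at 253 CPM in ft/ftMyD88-/- replicate 2 and at 172 to 182 in the others. *Ccr9* and *Cxcl12* kept their calls when that library was left out.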

How the results depend on the processing

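Of the 20 chemokine genes called, 14 kept the call in all 15 alternative fits, and none of the 20 changed sign. The 6 that lost it at least once were *Ccl4*, *Ccl6*, *Ccr8*, *Cx3cl1*, *Cxcl10* and *Cxcl16*, and 6 others gained it at least once (*Ccl19*, *Ccl27a*, *Ccr7*, *Cxcl14*, *Cxcl17* and *Cxcl9*). Leaving out each library in turn gave 13 to 19 chemokine genes higher and 2 to 3 lower, with 13 higher without ft/ft replicate 3, ft/ft replicate 4 or ft/ftMyD88-/- replicate 4. Over all genes it gave 1462 to 2260 higher and 1851 to 2408 lower, and 1462, without ft/ft replicate 4, was under the 2239 of all 8 libraries by more than 1.5 times. With library size only, 22 chemokine genes were higher and 1 lower, and 4638 genes higher and 1326 lower. That scaling moved the median log2 fold change of all genes by 0.18 and the share of calls that were higher from 47.0% to 77.8%. An adjusted p under 0.01 left 951 genes higher and 1350 lower, and 12 and 2 chemokine genes. Asking for a log2 fold change of 1 or more in size left 752 and 520 genes, and 14 and 1 chemokine genes. The cause of these shifts was not tested, apart from the stricter thresholds, which lower counts by construction. DESeq2 gave 22 chemokine genes higher and 2 lower, and limma voom 17 and 2.

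The replicate numbers did not pair the samples: same-numbered libraries correlated at -0.15 to 0.03 in their deviations, and 1 of the 4 ft/ft libraries correlated best with its own number. With the replicate block 16 chemokine genes were higher and 2 lower, and 1895 and 2144 genes in all. At this depth *Cxcr5*, *Cxcl11* and *Xcl1*, with few counts in any library, allow no firm statement.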

Other observations

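The marker lists not set beside a chemokine above gave the following values, and their part in the chemokine results was not tested. Of 8 dendritic and Langerhans cell markers 2 were higher and 2 lower, with sums of 755 to 1005 CPM in ft/ft and 585 to 883 in ft/ftMyD88-/-, and with library size only 2 were higher and 0 lower, as without ft/ft replicate 3 or ft/ftMyD88-/- replicate 1. Of 9 neutrophil markers 7 were in the counts and 6 were tested, 1 was higher (*Csf3r*) and 1 lower, and the sums overlapped, at 52.0 to 149 and 51.6 to 378 CPM. Of 6 B and plasma cell markers 1 was higher, with sums of 1.20 to 5.13 and 5.51 to 32.3 CPM, and of 6 mast cell markers 1 was higher (3 with DESeq2, with library size only or without ft/ftMyD88-/- replicate 1), with overlapping sums of 81.8 to 115 and 74.5 to 153 CPM. Of 4 NK cell markers 1 was higher, at sums of 0.0857 to 0.446 and 0.657 to 1.19 CPM. The single calls of the neutrophil, B and plasma cell and NK cell lists were each lost in at least 1 fit that left out a library. Markers of the tissue itself were lower or not called with TMM. Skeletal muscle had 5 of 5 lower (6509 to 8851 and 2524 to 4647 CPM), sebocytes 3 of 5 lower (16382 to 18795 and 10065 to 14983 CPM, but 1 higher and 1 lower with library size only and 1 lower without ft/ftMyD88-/- replicate 4) and adipocytes 0 of 4 called.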
